A study of Mus musculus with 25 samples.

Results

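The genes described here were 10 genes of lipid-associated and recruited macrophages: Trem2, Gpnmb, Cd9, Spp1, Itgax, Lgals3, Cd68, Ly6c2, Itgam and Lyz2. They were taken by symbol from a list, joined to their Ensembl identifiers, and make up 10 of the 41388 genes counted and 10 of the 14065 genes that passed the filter on low counts. Every member passed that filter. The libraries were poly-A selected liver RNA of male C57B/6J mice aged 20 weeks, 1 library per mouse. SIRT1 fl/fl littermates served as wild type (WT), and the liver-specific SIRT1 knockout (SIRT1 LKO) carries Albumin-cre, which is active in hepatocytes. All mice received an AAV8 virus by tail vein, either empty (EV) or carrying NAMPT, an enzyme of NAD salvage, behind the hepatocyte-specific thyroxine binding globulin promoter. The groups were chow-fed WT EV (n = 3), and 4 groups on Western diet (WD) in a study of 12 weeks: WT with EV (6 mice), WT with NAMPT (6 mice), LKO with EV (5 mice) and LKO with NAMPT (5 mice). The treatment text of the labels names SIRT1 as the insert of the virus, whereas the sample titles name NAMPT, and the titles were followed.

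Liver macrophages comprise resident Kupffer cells and cells that differentiate from blood monocytes. In fatty liver, monocyte-derived cells take up lipid and turn on a lipid-handling programme whose best known genes encode the receptor TREM2, the glycoprotein GPNMB, the tetraspanin CD9 and the secreted protein osteopontin (Spp1). Monocytes and their descendants also carry the integrin alpha chains CD11b (Itgam) and CD11c (Itgax), lysozyme M (Lyz2) and, while inflammatory, the surface protein Ly6C (Ly6c2). Hepatocytes, which carry both the Cre and the NAMPT promoter used here, are not the cells that these genes mark.

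The libraries held between 20166175 and 32937326 counts, and no library was a copy of another in its group. Pairs from different groups were not compared. A lower Sirt1 level was not detected in the livers labelled SIRT1 LKO. Sirt1 measured 8.86 ± 0.573 CPM (counts per 1000000, scaled by TMM here and throughout; SD, n = 6) in WT EV and 8.57 ± 1.34 CPM (SD, n = 5) in LKO EV. In WT NAMPT it measured 8.58 ± 0.617 CPM (SD, n = 6), against 9.82 ± 1.36 CPM (SD, n = 5) in LKO NAMPT. Counts summed over all exons of a gene cannot show whether single exons were deleted, and the LKO groups are therefore named below as labelled. The NAMPT groups are likewise named by the virus given, since a higher Nampt level did not pass the test over all genes in these counts. Nampt averaged 47.4 CPM in WT EV and 59.5 CPM in WT NAMPT (log2 difference 0.34 ± 0.16, SE, adjusted p = 0.144). It averaged 56.1 CPM in LKO EV and 79.9 CPM in LKO NAMPT (log2 difference 0.41 ± 0.16, SE, adjusted p = 0.403). Both differences were upward, with unadjusted limma p-values of 0.0400 in WT and 0.0170 in LKO. The paper states that its vector dose was set for a moderate NAMPT overexpression, measured by qRT-PCR in liver. Whether reads of the vector's NAMPT count towards Nampt is not given in the sources used here. Hepatocyte markers, whose summed level lay between 46656 and 79764 CPM, were abundant in every library. The labels give no sequencing batch, cage or collection date. In liver tissue, fewer cells of a type and less RNA per cell cannot be told apart, and this holds for every level and difference below.

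Per length of transcript, Lyz2 was the most abundant of the 10 genes, with a mean over the 25 libraries of 70.5 RPKM (CPM per 1000 bases of transcript). Cd68, a glycoprotein of macrophage lysosomes, followed at 21.3 RPKM. Spp1 reached 17.9 RPKM, Lgals3 (galectin-3, a sugar-binding protein) 11.8 RPKM and Cd9 7.24 RPKM. Gpnmb averaged 4.70 RPKM and Itgax 1.42 RPKM. Trem2, at 0.682 RPKM, Ly6c2, at 0.545 RPKM, and Itgam, at 0.523 RPKM, were the scarcest and lay close together. Gpnmb ranged most widely, from 1 count in a library (0.0445 CPM, a chow WT EV liver) to 5241 counts (124 CPM, a WT NAMPT liver). Its coefficient of variation over all libraries was 1.65, against 0.462 for Cd9 and 0.495 for Spp1, the steadiest members. For 10 of 10 members the lowest group mean was that of chow WT EV, and for 9 of 10 the highest was that of WT NAMPT. Spp1, highest in LKO EV, was the exception. Between these ends the WT EV, LKO EV and LKO NAMPT groups overlapped for each of the 10 genes, and the share of all genes for which they do is not given here.

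**Figure D1:**
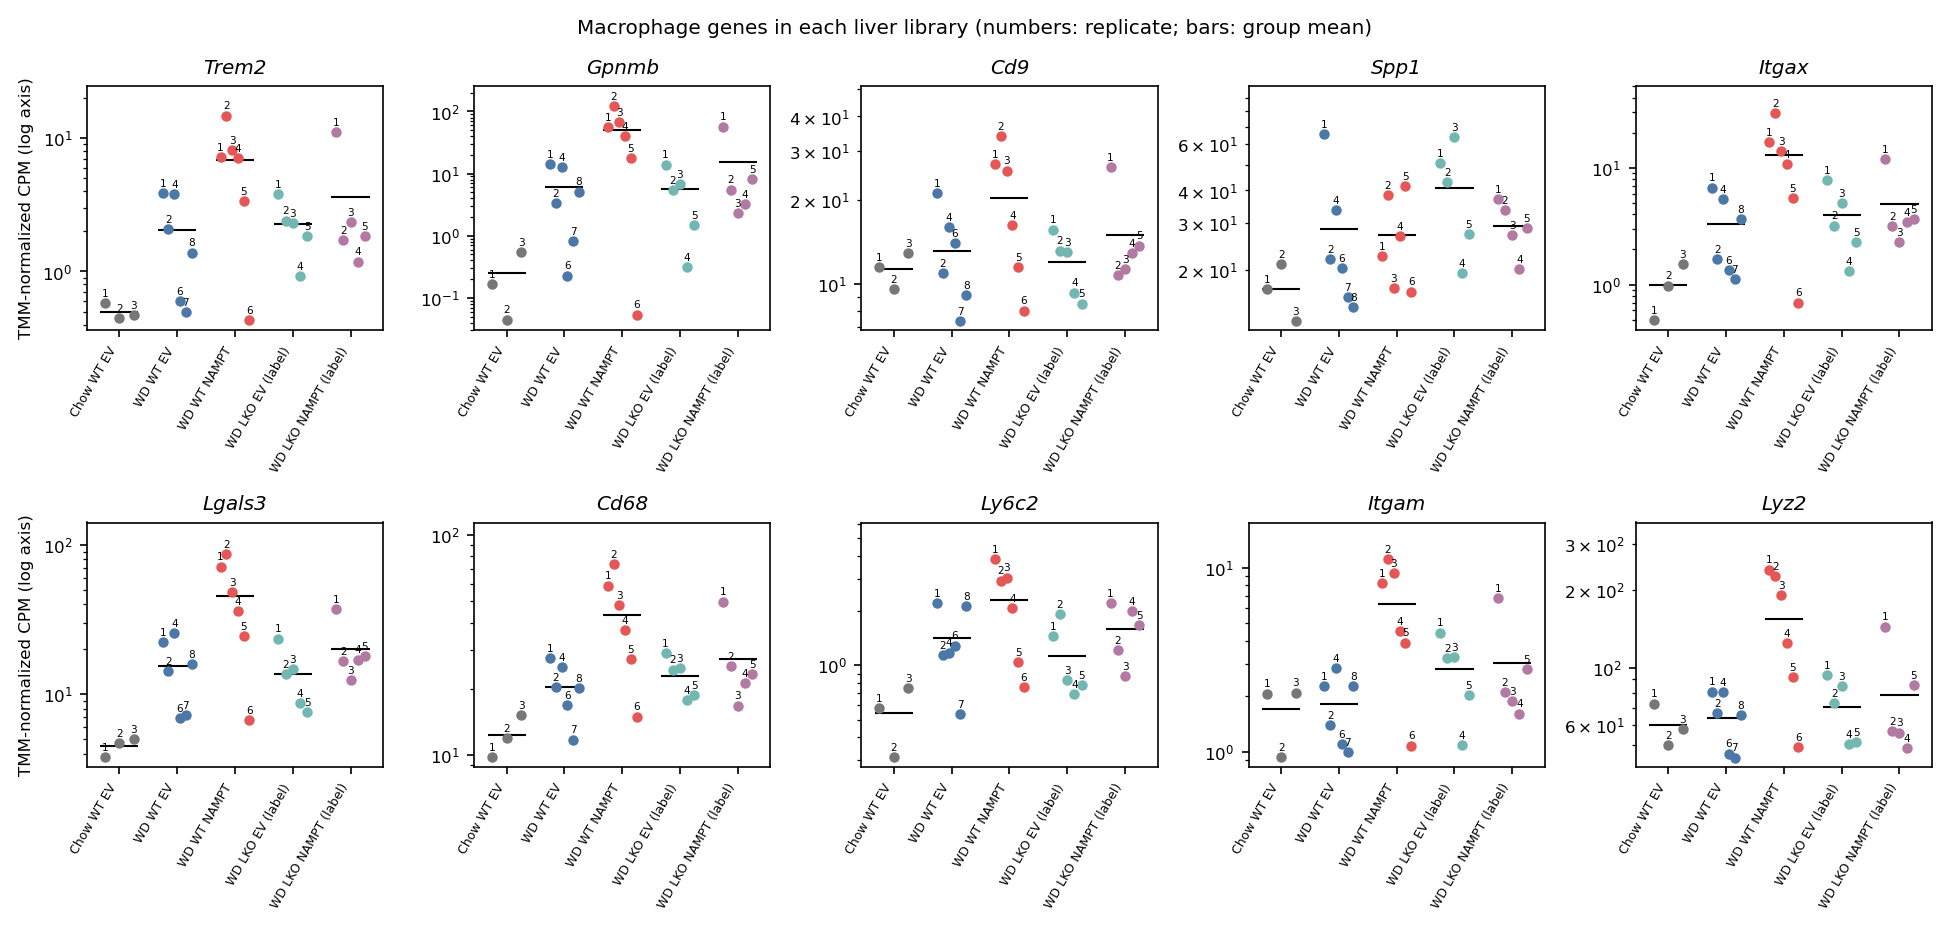
TMM-normalized CPM on a log axis of each gene in each of the 25 liver libraries, with the replicate number beside each point and a bar at the mean of the group. Replicate 6 of WT NAMPT lies lowest of its group and replicate 1 of LKO NAMPT highest of its group in every panel.

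The 10 genes lie on 8 chromosomes of GRCm38, with positions and exon blocks from the gene models given with the deposited counts. Itgam (ENSMUSG00000030786, chr7:128062640-128128160, 31 exon blocks) and Itgax (ENSMUSG00000030789, chr7:128129547-128150656, 30 exon blocks) are neighbours on the plus strand of chromosome 7. Gpnmb (ENSMUSG00000029816, chr6:49036518-49058182, plus strand) and Cd9 (ENSMUSG00000030342, chr6:125460266-125494791, minus strand) both lie on chromosome 6, far apart. Trem2 (ENSMUSG00000023992) spans chr17:48346401-48354147, Spp1 (ENSMUSG00000029304) chr5:104435118-104441050 and Lgals3 (ENSMUSG00000050335) chr14:47367751-47386160, all on the plus strand. Cd68 (ENSMUSG00000018774) spans chr11:69664213-69666153, Ly6c2 (ENSMUSG00000022584) chr15:75108158-75111970 and Lyz2 (ENSMUSG00000069516) chr10:117277334-117282274, all on the minus strand. Some of the genes share sequence with relatives, and their counts are uncertain to that degree. Of the 50-base windows of its transcripts as annotated by GENCODE, Lyz2 shared 15.4% with other loci, mainly its paralogue Lyz1. Ly6c2 shared 14.5%, mainly with Ly6c1, and Itgax 8.02%, mainly with Itgad. Cd9 shared 5.92% of its windows with other loci, and 30 of its exonic bases overlap Gm26728 on the other strand. Gpnmb shared 1 window of 6512. Trem2, Spp1, Lgals3, Cd68 and Itgam shared no such window.

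The promoters of 5 members are shown because these genes span the range described below: the levels of Trem2, Gpnmb, Itgax and Itgam followed each other closely from library to library, and Spp1 followed them less closely. Each sequence is 300 bases from RefSeq (GRCm38.p6), from 250 bases before the start of transcription to 50 bases after it, read in the direction of the gene. Trem2 lies at chr17:48346151-48346450, plus strand. Gpnmb lies at chr6:49036268-49036567, plus strand. Itgax lies at chr7:128129300-128129599, plus strand, and Itgam, its neighbour, at chr7:128062390-128062689, plus strand. The Spp1 promoter shown, the first of 2 in RefSeq, lies at chr5:104434861-104435160, plus strand. Capitals mark matches on either strand to GAGGAAG, a core that the myeloid factor PU.1 can bind, or to TGANTCA, the consensus of the AP-1 factors.
Trem2: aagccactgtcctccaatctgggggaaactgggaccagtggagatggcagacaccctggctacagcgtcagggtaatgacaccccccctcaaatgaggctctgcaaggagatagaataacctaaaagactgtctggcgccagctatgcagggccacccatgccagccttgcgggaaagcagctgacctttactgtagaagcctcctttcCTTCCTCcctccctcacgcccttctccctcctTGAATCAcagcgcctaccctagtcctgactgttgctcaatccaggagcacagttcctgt
Gpnmb: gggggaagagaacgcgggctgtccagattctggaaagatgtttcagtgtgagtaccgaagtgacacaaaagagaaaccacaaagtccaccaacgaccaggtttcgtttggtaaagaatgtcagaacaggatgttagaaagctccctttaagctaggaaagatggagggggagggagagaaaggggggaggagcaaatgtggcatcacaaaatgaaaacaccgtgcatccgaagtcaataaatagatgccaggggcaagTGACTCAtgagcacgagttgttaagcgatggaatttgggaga
Itgax: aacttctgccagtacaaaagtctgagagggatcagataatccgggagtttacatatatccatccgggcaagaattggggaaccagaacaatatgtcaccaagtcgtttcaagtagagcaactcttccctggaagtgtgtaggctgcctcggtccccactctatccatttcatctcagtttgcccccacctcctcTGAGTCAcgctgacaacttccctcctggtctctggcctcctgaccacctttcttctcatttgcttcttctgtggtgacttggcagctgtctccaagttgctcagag
Itgam: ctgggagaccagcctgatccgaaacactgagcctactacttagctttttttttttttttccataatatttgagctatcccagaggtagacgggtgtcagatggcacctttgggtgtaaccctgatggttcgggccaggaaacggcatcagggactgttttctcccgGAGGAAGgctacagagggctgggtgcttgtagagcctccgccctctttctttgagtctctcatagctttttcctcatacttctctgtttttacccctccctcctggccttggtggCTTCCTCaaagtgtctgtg
Spp1: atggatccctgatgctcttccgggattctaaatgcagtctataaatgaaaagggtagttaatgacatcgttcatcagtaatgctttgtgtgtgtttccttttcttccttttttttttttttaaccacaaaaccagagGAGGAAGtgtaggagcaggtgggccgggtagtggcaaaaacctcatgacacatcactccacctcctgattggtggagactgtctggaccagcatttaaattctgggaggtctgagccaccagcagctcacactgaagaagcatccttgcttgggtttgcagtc

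The Trem2 promoter held a match to GAGGAAG that began 41 bases before the start and a match to TGANTCA that began 9 bases before it. Gpnmb held TGANTCA 9 bases after the start, and Itgax held it 56 bases before. Itgam held GAGGAAG on the plus strand 84 bases before and on the minus strand 32 bases after the start, and Spp1 held it 113 bases before. Over the 12 promoters that RefSeq lists for the 10 members (2 each for Spp1 and Ly6c2), GAGGAAG occurred in 5 and TGANTCA in 4. Both Ly6c2 promoters overlap and hold the same GAGGAAG matches, and Cd68 holds TGANTCA at 2 places. Among all 32851 promoters of that length, 13.6% held GAGGAAG and 7.81% held TGANTCA. The E-box CACGTG, present in 7.15% of all promoters, was in none of the 12, and the related CATGTG, present in 14.2%, was in that of Cd9. A match describes these letters only.

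Western diet against chow, in WT mice with the empty vector, asks which of these genes differ with the diet. Lgals3, Cd68 and Ly6c2 rose, which is 3 of 10 members. Of all 14065 genes tested, 22% were called in either direction and 10.1% were called higher. The median log2 difference of the members was 1.12, against 0.00 over all genes, and all 10 differences were above 0. Lgals3 measured 3.80, 4.72 and 5.01 CPM in the 3 chow livers, and 6.92 at the lowest, 15.0 at the median and 25.7 CPM at the highest in the 6 WD livers. The groups did not overlap, as for 7.66% of all genes in that direction. Its log2 difference was 1.65 ± 0.54 (SE, adjusted p = 0.0293).

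Cd68 measured 9.80, 11.9 and 15.2 CPM on chow and 11.8, 20.3 and 27.6 CPM (lowest, median, highest) on WD. In 5 of the 6 WD livers it was above every chow liver (log2 difference 0.79 ± 0.28, SE, adjusted p = 0.0427). Ly6c2 measured 0.579, 0.312 and 0.750 CPM on chow and 0.537, 1.23 and 2.19 CPM (lowest, median, highest) on WD, and again 5 of 6 WD livers exceeded every chow liver. Its log2 difference was 1.45 ± 0.53 (SE, adjusted p = 0.0495), from as few as 7 counts in a library.

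The other members did not pass the test. Trem2, the lipid-sensing receptor, measured 0.579, 0.445 and 0.473 CPM on chow and 0.496, 1.73 and 3.88 CPM (lowest, median, highest) on WD. Its log2 difference was 1.68 ± 0.98 (SE, adjusted p = 0.228), and in 5 of 6 WD livers it was above the chow range. Gpnmb measured 0.165, 0.0445 and 0.552 CPM on chow and 0.229, 4.24 and 14.3 CPM (lowest, median, highest) on WD. That log2 difference had an SE almost as large as itself (4.55 ± 4.48, adjusted p = 0.497). Itgax gave 1.57 ± 1.0 (SE, adjusted p = 0.274) and Spp1 0.44 ± 0.35 (SE, adjusted p = 0.387). Cd9, Itgam and Lyz2 gave between 0.12 and 0.20. The 3 calls depended on the test: 0 members were called by the edgeR quasi-likelihood test, which called 9.4% of all genes, and 2 (Gpnmb and Lgals3) by DESeq2, which called 12.4%. None was called with chow replicate 1 or 2 left out (6.89% and 5.95% of all genes) or with WT EV replicate 1 or 4 left out (17.8% and 18.9%), and Lgals3 alone was called without WT EV replicate 2 (20%).

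The NAMPT virus in WT mice on Western diet gave the largest number of calls. Trem2, Itgax, Lgals3, Cd68, Itgam and Lyz2 rose, 6 of 10 members, where 13.4% of all genes were called in either direction and 7.67% were called higher. All 10 log2 differences were above 0, with a median of 1.30 against 0.00 over all genes. The WT EV livers are the same ones that served in the comparison with chow. Among the receptors, Trem2 measured 0.496, 1.73 and 3.88 CPM (lowest, median, highest) in WT EV and 0.431, 7.16 and 14.8 CPM in WT NAMPT. Of the 6 NAMPT livers, 4 were above every EV liver, and replicate 6 was below every one of them. The log2 difference was 1.92 ± 0.54 (SE, adjusted p = 0.0233).

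The integrin chains rose by similar amounts. Itgax measured 1.12, 2.66 and 6.79 CPM (lowest, median, highest) in WT EV and 0.700, 12.4 and 29.4 CPM in WT NAMPT. Again 4 of 6 NAMPT livers lay above the EV range and 1 below it, with a log2 difference of 2.11 ± 0.55 (SE, adjusted p = 0.0174). Itgam measured 0.992, 1.83 and 2.83 CPM in WT EV and 1.08, 6.37 and 11.1 CPM in WT NAMPT. In 5 of 6 NAMPT livers Itgam exceeded every EV liver (log2 difference 1.87 ± 0.43, SE, adjusted p = 0.0122).

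The lysosomal and secreted macrophage proteins followed. Lyz2, which encodes the antibacterial enzyme lysozyme, measured 44.9, 66.0 and 80.7 CPM (lowest, median, highest) in WT EV and 49.1, 158 and 239 CPM in WT NAMPT, with 5 of 6 NAMPT livers above the EV range. Its log2 difference was 1.14 ± 0.26 (SE, adjusted p = 0.0124). Cd68 measured 11.8, 20.3 and 27.6 CPM in WT EV and 15.0, 42.6 and 73.6 CPM in WT NAMPT (log2 difference 1.0 ± 0.23, SE, adjusted p = 0.0125). Lgals3 measured 6.92, 15.0 and 25.7 CPM in WT EV and 6.73, 42.2 and 86.2 CPM in WT NAMPT (log2 difference 1.46 ± 0.35, SE, adjusted p = 0.0134). For both genes 4 of 6 NAMPT livers lay above the EV range.

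Gpnmb had the widest spread and missed the threshold. It measured 0.229, 4.24 and 14.3 CPM (lowest, median, highest) in WT EV. In the WT NAMPT livers, replicates 1 to 6, it measured 55.7, 124, 67.3, 40.1, 18.01 and 0.0539 CPM. Of the NAMPT livers 5 were above every EV liver, and replicate 6, with 1 count, was below all of them. The log2 difference was 3.43 ± 1.22 (SE, adjusted p = 0.0604). Cd9 gave 0.63 ± 0.26 (SE, adjusted p = 0.0985) and Ly6c2 0.80 ± 0.34 (SE, adjusted p = 0.111), each with 3 of 6 NAMPT livers above the EV range.

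Spp1 stood apart from the other members. It measured 14.4, 21.1 and 65.7 CPM (lowest, median, highest) in WT EV and 16.5, 24.7 and 41.4 CPM in WT NAMPT. No NAMPT liver was above the EV range, and the log2 difference was 0.012 ± 0.32 (SE, adjusted p = 0.985). With an SE of that size an equal level is not shown. Bile duct cells also make osteopontin. Of their 4 markers tested none was called here, with log2 differences from -0.30 to 0.085. The median log2 difference of these markers was -0.22 with Western diet and -1.25 for the NAMPT virus in the livers labelled LKO. It was 0.47 for LKO EV against WT EV and -0.88 for LKO NAMPT against WT NAMPT. The part of bile duct cells in the Spp1 level was not tested.

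The number of calls in WT depended on single libraries and on the weighting of libraries. Without WT NAMPT replicate 3, 0 members and 0.94% of all genes were called. Without WT EV replicate 2 there were 2 (Cd68 and Lyz2) and 2.07% of all genes. Dropping WT NAMPT replicate 5 or replicate 6 gave 9, that is all but Spp1, while the share of all genes called also went up, to 19.9% and 20.2%. Without sample quality weights limma called 0 members and 1.37% of all genes. The edgeR quasi-likelihood test called 4 members (Lgals3, Cd68, Itgam and Lyz2) and 3.04% of all genes. DESeq2 called 6, with Gpnmb in place of Trem2, and 8.49% of all genes. The direction was upward in every fit for each of the 9 members other than Spp1.

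**Figure D2:**
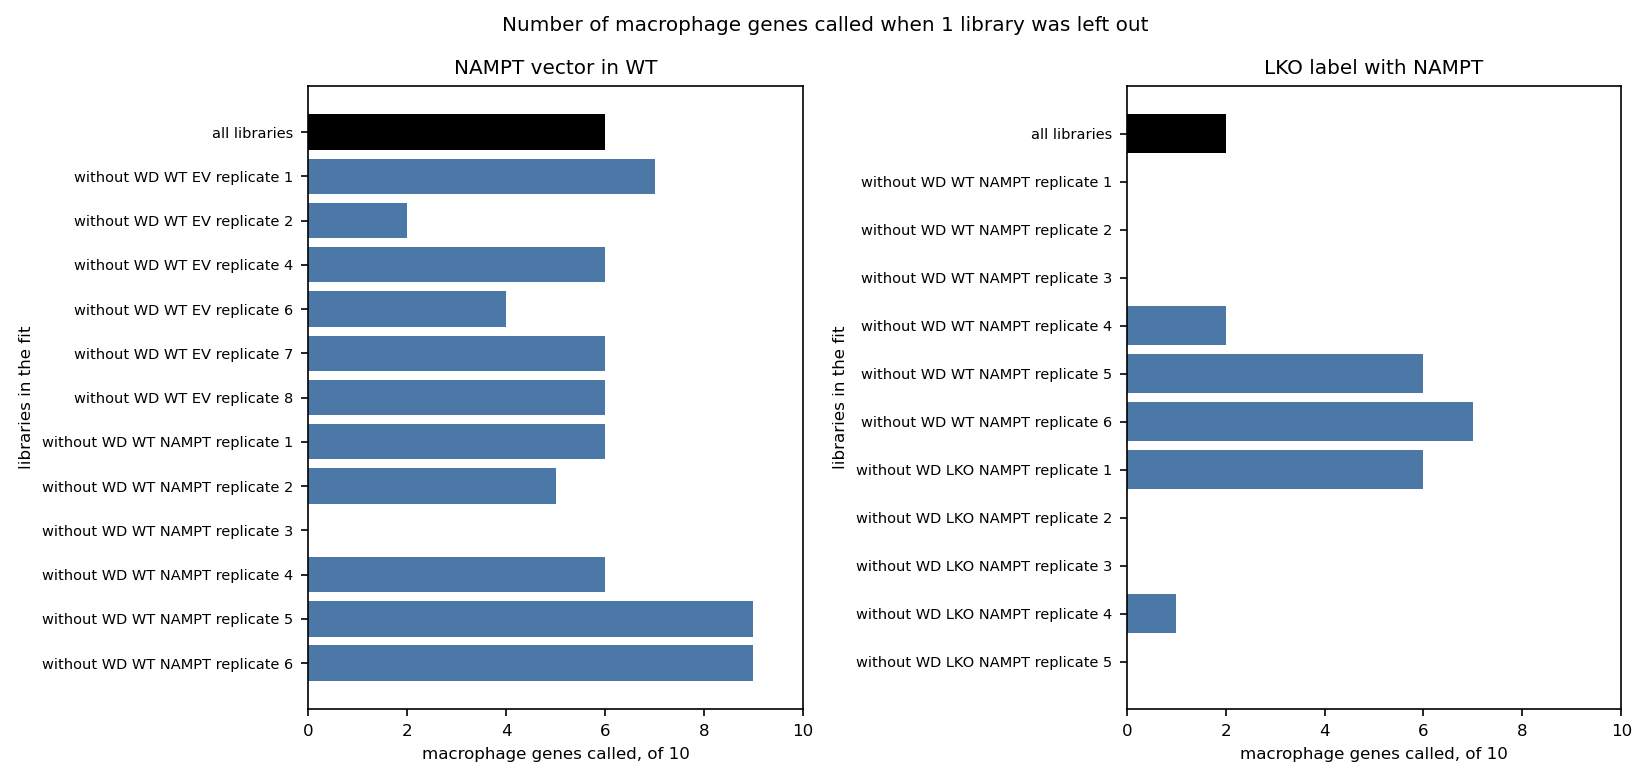
Number of the 10 genes called (adjusted p of 0.05 or less) with all libraries in the fit (black) and with 1 library left out (blue), for the NAMPT virus in WT livers (left) and for LKO NAMPT against WT NAMPT (right). The counts ran from 0 to 9 on the left and from 0 to 7 on the right.

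In the livers labelled SIRT1 LKO, the NAMPT virus gave no call among the 10 genes. limma called 0 members, with 0 at an unadjusted p under 0.05 (9.63% of all genes), and the edgeR quasi-likelihood test and DESeq2 also gave 0 for both counts. Of all genes, 0.00711% were called by limma, 0 by the quasi-likelihood test and 0.0427% by DESeq2. The median log2 difference of the members was 0.13, against 0.02 over all genes. Trem2 measured 3.82, 2.41, 2.31, 0.928 and 1.83 CPM in LKO EV, replicates 1 to 5, and 11.1, 1.71, 2.35, 1.18 and 1.83 CPM in LKO NAMPT. Replicate 1 of LKO NAMPT was above every EV liver, and the other 4 lay within the EV range. The log2 difference was -0.027 ± 0.60 (SE, adjusted p = 0.994).

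Gpnmb repeated this arrangement. It measured 13.9, 5.46, 6.82, 0.309 and 1.47 CPM in LKO EV and 57.2, 5.52, 2.31, 3.26 and 8.24 CPM in LKO NAMPT (log2 difference 0.98 ± 1.33, SE, adjusted p = 0.851). Itgam gave -0.11 ± 0.44, Itgax 0.12 ± 0.59 and Lyz2 -0.051 ± 0.26 (log2 differences, SE). Lgals3 gave 0.52 ± 0.38, Ly6c2 0.53 ± 0.37 and Spp1 -0.44 ± 0.32. The smallest of the 10 adjusted p-values was 0.689, for Ly6c2. Whether the NAMPT effect differed between the genotypes was tested by the interaction.

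With the empty vector, limma called 0 of 10 members and 0.00711% of all genes between the livers labelled SIRT1 LKO and the WT livers. At an unadjusted p under 0.05 there was 1 member by limma, Spp1 (6.33% of all genes), and 0 by the edgeR quasi-likelihood test and DESeq2, which also called 0 (0.0782% of all genes by DESeq2). Spp1 measured 50.8, 43.1, 63.9, 19.4 and 27.2 CPM in LKO EV, with 3 of the 5 livers above all WT EV livers except replicate 1, the highest at 65.7 CPM. The log2 difference was 0.69 ± 0.31 (SE, adjusted p = 0.761). Itgam gave 0.70 ± 0.47 (SE, adjusted p = 0.897), and its 3 highest LKO EV livers, at 4.43, 3.21 and 3.26 CPM, were above the WT EV range. The other 8 members had log2 differences between -0.27 and 0.51.

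**Figure D3:**
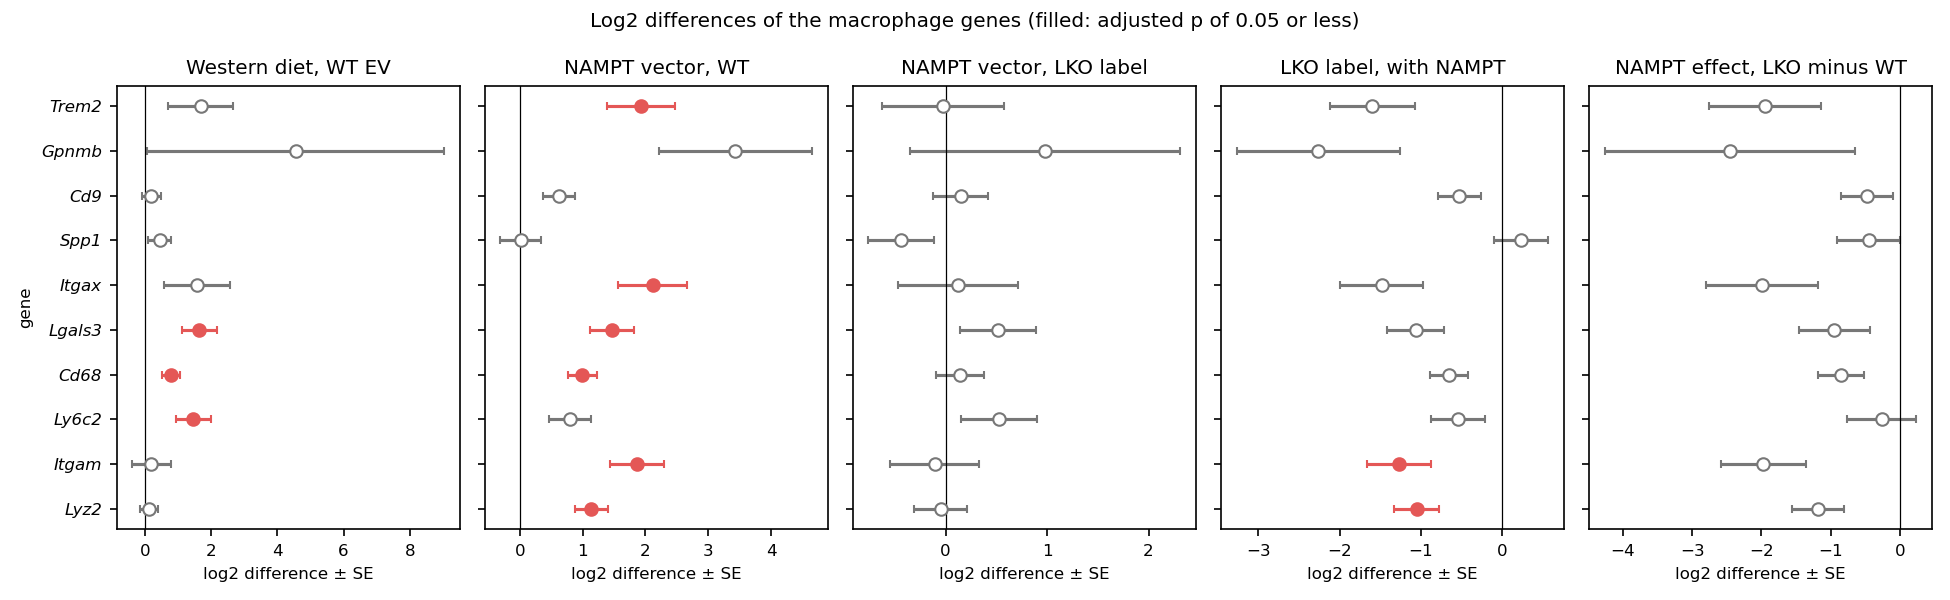
Log2 difference of each gene with its SE in 4 comparisons and in the interaction, on a separate horizontal scale in each panel. Filled points have an adjusted p of 0.05 or less: 3 genes for the diet, 6 for the NAMPT virus in WT, none in the livers labelled LKO, 2 (lower) between LKO NAMPT and WT NAMPT, and none for the interaction.

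With the NAMPT virus in both, Itgam and Lyz2 were lower in the livers labelled SIRT1 LKO than in WT, and these 2 of 10 members passed the test. Of all genes, 7.96% were called in either direction and 3.78% were called lower. The log2 difference was below 0 for 9 members, with a median over all 10 of -1.06, against -0.01 over all genes. Itgam measured 1.08, 6.37 and 11.1 CPM (lowest, median, highest) in WT NAMPT and 6.84, 2.10, 1.88, 1.61 and 2.82 CPM in LKO NAMPT, replicates 1 to 5. Of the 5 LKO livers 4 lay below 5 of the 6 WT livers, and replicate 1 lay among the latter. The log2 difference was -1.27 ± 0.39 (SE, adjusted p = 0.0463).

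Lyz2 showed the same order. It measured 49.1, 158 and 239 CPM (lowest, median, highest) in WT NAMPT and 144, 56.9, 56.0, 48.8 and 85.3 CPM in LKO NAMPT, where replicate 1 was again the high one. Its log2 difference was -1.05 ± 0.28 (SE, adjusted p = 0.0275). Trem2 gave -1.60 ± 0.52 (SE, adjusted p = 0.0554), Itgax -1.48 ± 0.51 (SE, adjusted p = 0.0645) and Lgals3 -1.06 ± 0.35 (SE, adjusted p = 0.0576), just outside the threshold. Cd68 gave -0.65 ± 0.23 (SE, adjusted p = 0.0758) and Gpnmb -2.26 ± 1.01 (SE, adjusted p = 0.138). Spp1 alone had a positive log2 difference, 0.23 ± 0.33 (SE, adjusted p = 0.674).

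These calls too rested on few libraries. The edgeR quasi-likelihood test and DESeq2 each called 0 members, and called 0.32% and 2.09% of all genes. Each had 5 members lower at an unadjusted p under 0.05, as were 9.23% and 10.1% of all genes. In limma 7 members were lower at an unadjusted p under 0.05, as were 14.3% of all genes. Leaving out any of WT NAMPT replicates 1, 2 and 3 or LKO NAMPT replicates 2, 3 and 5 gave 0 calls (0 to 4.58% of all genes), and leaving out LKO NAMPT replicate 4 gave 1 (Lyz2, 12.9% of all genes). The count was 6 without LKO NAMPT replicate 1 or WT NAMPT replicate 5, and 7 if WT NAMPT replicate 6 was dropped, where 16.1%, 13.9% and 16.3% of all genes were called.

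The interaction, the NAMPT effect in the livers labelled LKO minus that in WT, passed the test for none of the 10 genes and for 0.00711% of all genes. The edgeR quasi-likelihood test also called 0 members and 0 of all genes. DESeq2 gave an adjusted p to 704 of the 14065 genes here, none of them a member, so it has no count of calls. All 10 estimates were below 0, with a median of -1.07, and 5 had an unadjusted p under 0.05 by limma (Trem2, Itgax, Cd68, Itgam and Lyz2), where 10.2% of all genes did in that direction. The edgeR quasi-likelihood test gave 2 such members (4.91% of all genes) and DESeq2 3 (5.45%). Itgam had an interaction of -1.98 ± 0.61 (log2, SE, adjusted p = 0.0938). Lyz2 had -1.19 ± 0.37 (adjusted p = 0.0950). Itgax had -2.0 ± 0.81 (adjusted p = 0.164), Trem2 -1.95 ± 0.81 (adjusted p = 0.172) and Cd68 -0.86 ± 0.33 (adjusted p = 0.148). Itgam and Lyz2 passed when WT NAMPT replicate 6 or LKO NAMPT replicate 1 was dropped (4.53% and 4.82% of all genes), and Lyz2 when WT NAMPT replicate 5 was (2.6%). A NAMPT effect that differs between the genotypes was not shown for any member with all libraries in the fit.

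Single livers set much of this spread. WT NAMPT replicate 6 had the lowest level of its group for 10 of 10 members, and limma gave it the lowest quality weight of its group, 0.336. LKO NAMPT replicate 1 had the highest level of its group for 10 of 10 members. WT EV replicate 1 and LKO EV replicate 1 were each highest of their group for 8. WT NAMPT replicate 2, highest of its group for 7 members, had the largest TMM factor, 1.29. The summed level of the 10 genes in WT NAMPT ran from 98.3 to 640.0 CPM, with a median of 369 CPM, and its lowest liver was below the lowest chow liver (99.9 CPM).

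The members went up and down together within groups. After subtraction of the group means from log2(CPM + 0.5), over the 25 libraries, 44 of the 45 pairs of members were correlated at an adjusted p of 0.05 or less (permutation within groups, 55 correlations tested), with a median Pearson r of 0.885. Itgax and Lgals3 gave the highest value, r = 0.965 and Spearman rho = 0.952 (permutation p = 1e-05, the smallest that the permutations can give, adjusted p = 2.5e-05 for r and 3.2e-05 for rho). Without the 2 libraries farthest from the median of Itgax, r was 0.931. Trem2 and Gpnmb gave r = 0.944 and rho = 0.925 (permutation p = 1e-05, adjusted p = 2.5e-05 for r and 3.2e-05 for rho), and 0.902 without the 2 farthest libraries. All libraries share the same liver tissue background and scaling, and the pairs are not independent of each other.

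Spp1 was the member least tied to the rest. Its 9 correlations ran from 0.192, with Ly6c2, to 0.570, with Gpnmb. With Gpnmb, rho was 0.599 (permutation p = 0.0047 for both, adjusted p = 0.0068 for r and 0.0070 for rho), and r was 0.560 without the 2 farthest libraries. With Ly6c2, rho was 0.154 (permutation p = 0.42 for r and 0.52 for rho, adjusted p = 0.43 and 0.53), and r was 0.0111 without the 2 farthest. The other 36 pairs ran from 0.656, between Trem2 and Ly6c2, to 0.965. The correlations of Nampt with the members were all below 0, with r between -0.378 and -0.167, and 0 of 10 had an adjusted p of 0.05 or less for r. By rank 1 of 10 passed, that of Itgax (r = -0.350, permutation p = 0.096, adjusted p = 0.11, and rho = -0.455, permutation p = 0.034, adjusted p = 0.043), and r was -0.368 without the 2 farthest libraries.

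**Figure D4:**
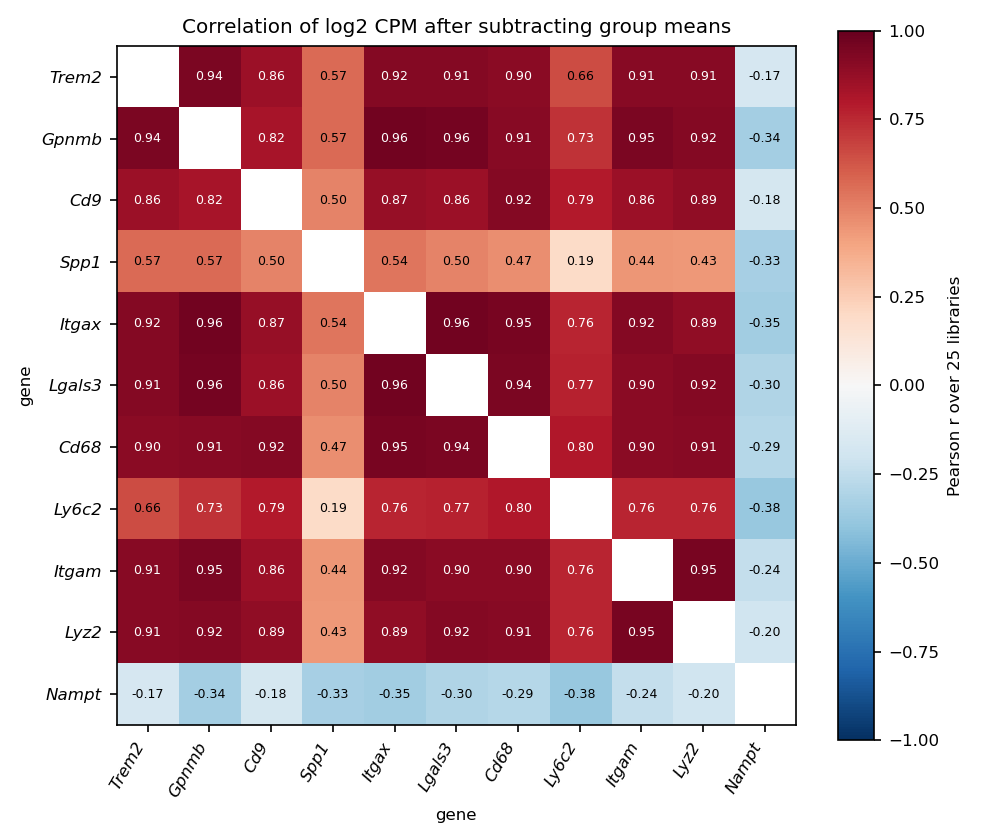
Pearson r between each pair of the 10 genes, and of each with Nampt, of log2(CPM + 0.5) over 25 libraries after subtraction of the group means. Spp1 has the palest row among the 10 genes (0.19 to 0.57), and Nampt is negative with every one of them.

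The genes whose levels most resembled each member were also looked up over all genes. Without subtraction of group means, Itgb2, the beta chain that pairs with Itgax and Itgam, was the closest gene to Itgax (r = 0.973) and to Lgals3 (r = 0.980), and the second closest to Gpnmb (r = 0.973). Laptm5, a lysosomal protein of blood cells, was closest to Gpnmb (r = 0.982). Ptprc, which encodes the leukocyte antigen CD45, was closest to Lyz2 (r = 0.960). Csf2ra, a receptor chain for GM-CSF, was closest to Itgam (r = 0.954), and Klf6 to Cd9 (r = 0.941). Cd68 was nearest to Fam129a (r = 0.981) and Ly6c2 to Il18bp (r = 0.909). Trem2 was nearest to Col3a1 (r = 0.961), a fibrillar collagen of stellate cells and fibroblasts, and next to Laptm5 (r = 0.960). Spp1 again differed, with lower values to its nearest genes, Htra3 (r = 0.790) and Ttc39aos1 (r = 0.780). After subtraction of the group means the closest gene was another one for 7 of the 10 members. It was then Sirpa for Trem2 (r = 0.952), Tgfb1 for Itgax (r = 0.969), Iqgap1 for Lgals3 (r = 0.978), Laptm5 for Itgam (r = 0.955), Ccl6 for Lyz2 (r = 0.956), Mgat4a for Ly6c2 (r = 0.867) and Frmd6 for Spp1 (r = 0.840). For Gpnmb (Laptm5, r = 0.974), Cd9 (Klf6, r = 0.946) and Cd68 (Fam129a, r = 0.976) it was the gene named above. These are descriptions over 25 libraries that share groups.

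The signalling partners and receptors of the members form a list of 12 genes, all of which were tested. For this list and those that follow, the shares of all genes are 7.67% called higher in WT NAMPT against WT EV, 10.1% called higher with Western diet and 3.78% called lower in LKO NAMPT against WT NAMPT. In WT NAMPT against WT EV 6 of 12 rose and none fell, with a median log2 difference of 0.71. Itgb2 rose by 1.23 ± 0.28 (log2, SE, adjusted p = 0.0121). Tyrobp, the adaptor through which TREM2 signals, rose by 0.88 ± 0.22 (adjusted p = 0.0152), the kinase Syk by 0.96 ± 0.23 (adjusted p = 0.0128) and the phospholipase Plcg2 by 0.89 ± 0.25 (adjusted p = 0.0241). Of the osteopontin receptors, Cd44 rose by 1.0 ± 0.26 (adjusted p = 0.0169) and the integrin chain Itga4 by 0.89 ± 0.23 (adjusted p = 0.0155), although Spp1 itself did not pass the test. Itgb3 gave 0.55 ± 0.19 (adjusted p = 0.0508), Itga9 0.25 ± 0.098 (adjusted p = 0.0867) and Itgav 0.16 ± 0.091 (adjusted p = 0.247). Sdc4, Hcst and Cd81, the last a tetraspanin partner of CD9, gave -0.12, 0.28 and -0.26 and did not pass. With Western diet 2 of 12 rose, Tyrobp (0.79) and Cd81 (0.65). In LKO NAMPT against WT NAMPT, Itgb2 (-0.88), Tyrobp (-0.76) and Syk (-0.75) were lower and Cd81 (0.32) higher.

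Other genes of lipid-associated macrophages, a list of 22, rose in 9 cases with the NAMPT virus in WT and fell in none (median log2 difference 0.61). The largest differences among the 9 were those of Plaur, the urokinase receptor (1.77), Lpl, lipoprotein lipase (1.44), and Capg, an actin-capping protein (1.43). The protease gene Mmp12, named after its value was seen, gave a larger one, 2.52 ± 0.93 (SE), and did not pass (adjusted p = 0.0703). With Western diet 10 of the 22 rose, led by the fatty acid carrier Cd36 (2.58), the fatty acid-binding protein Fabp4 (1.01) and the lipid droplet protein Plin2 (0.84), genes that are not particular to macrophages. In LKO NAMPT against WT NAMPT 3 were lower: Hvcn1 (-0.68), Lgmn (-0.54) and Pld3 (-0.54).

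Recruited monocyte genes were a list of 15, of which 14 were tested. With the NAMPT virus in WT 10 of 14 rose, with a median log2 difference of 1.26, led by Chil3 (2.05), Vcan (2.03) and the chemokine receptor Cx3cr1 (1.87). With Western diet 1 of 14 rose (Cybb, a subunit of the phagocyte oxidase, 0.74). In LKO NAMPT against WT NAMPT Lyz1 (-1.89), which shares sequence with Lyz2, and Emilin2 (-0.84) were lower. Of 10 pan-macrophage and leukocyte genes, 9 rose with the NAMPT virus in WT, with Cd14 (1.18), Aif1 (0.99) and Ptprc (0.94) in front. With Western diet 3 rose, namely Fcgr1 (0.89), Laptm5 (0.85) and Mpeg1 (0.79). In LKO NAMPT against WT NAMPT 4 were lower, among them Ptprc (-0.87), the myeloid transcription factor Spi1 (-0.81) and Laptm5 (-0.80). None of these 4 lists had a gene called for the NAMPT virus in the livers labelled LKO, for LKO EV against WT EV or for the interaction.

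Markers of other liver cells moved in part with the members, and their part in the results was not tested. Of the neutrophil markers, 8 of 11 were tested and 3 rose with the NAMPT virus in WT. All 8 log2 differences were above 0, with a median of 1.38. The summed level of the 11 neutrophil markers ran from 3.88 to 10.4 CPM in WT EV and from 4.74 to 33.3 CPM in WT NAMPT. It ran from 3.56 to 10.3 CPM in LKO EV and from 5.92 to 23.7 CPM in LKO NAMPT. Ly6g, which defines neutrophils, had 3 counts or fewer over every whole group. Of 8 stellate cell and fibroblast markers 4 rose, with sums of 291 to 484 CPM in WT EV and 296 to 732 CPM in WT NAMPT. Of 11 Kupffer cell markers 2 rose, with sums of 400 to 574 CPM in WT EV and 407 to 808 CPM in WT NAMPT. Of 7 dendritic cell markers 2 rose (sums of 12.2 to 15.1 CPM and 9.21 to 18.5 CPM), and of 6 endothelial markers 1 rose and 1 fell (sums of 278 to 330 CPM and 270 to 330 CPM). No marker was called among the 3 tested for B cells, 5 for T and NK cells, 4 for cholangiocytes and 6 for hepatocytes. The summed hepatocyte markers ran from 53741 to 71782 CPM in WT EV and from 46656 to 65227 CPM in WT NAMPT. The lowest sums of all 25 libraries were those of WT NAMPT replicates 2 and 3 (46656 and 50725 CPM), 2 of the livers in which the members were high. The members were also high in WT NAMPT replicates 1 and 4, which had the highest hepatocyte sums of their group (65227 and 65114 CPM). In LKO NAMPT replicate 1, another such liver, the sum was 61128 CPM. In LKO NAMPT against WT NAMPT, 1 marker each of neutrophils, stellate cells, Kupffer cells, dendritic cells and cholangiocytes was lower.

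With Western diet against chow, too, markers of other cells were called. Of all genes, 22% were called in either direction there and 10.1% were called higher. Of the 6 hepatocyte markers 2 were lower, and their sums ran from 70112 to 79764 CPM on chow and from 53741 to 71782 CPM on WD. Of the 11 Kupffer cell markers 2 rose (sums of 333.1 to 465.8 CPM on chow and 400 to 574 CPM on WD), as did 2 of the 8 stellate cell and fibroblast markers (301 to 345 CPM and 291 to 484 CPM). Of 5 T and NK cell markers 1 rose (5.92 to 6.33 CPM and 3.71 to 7.76 CPM) and of 3 B cell markers 1 was lower (3.97 to 4.30 CPM and 2.15 to 3.52 CPM). Of 6 endothelial markers 1 rose and 1 was lower (288 to 308 CPM and 278 to 330 CPM). No neutrophil, dendritic cell or cholangiocyte marker was called, and the neutrophil sums were 3.87 to 7.61 CPM on chow. The part of these markers in the differences of Lgals3, Cd68 and Ly6c2 was not tested.

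**Figure D5:**
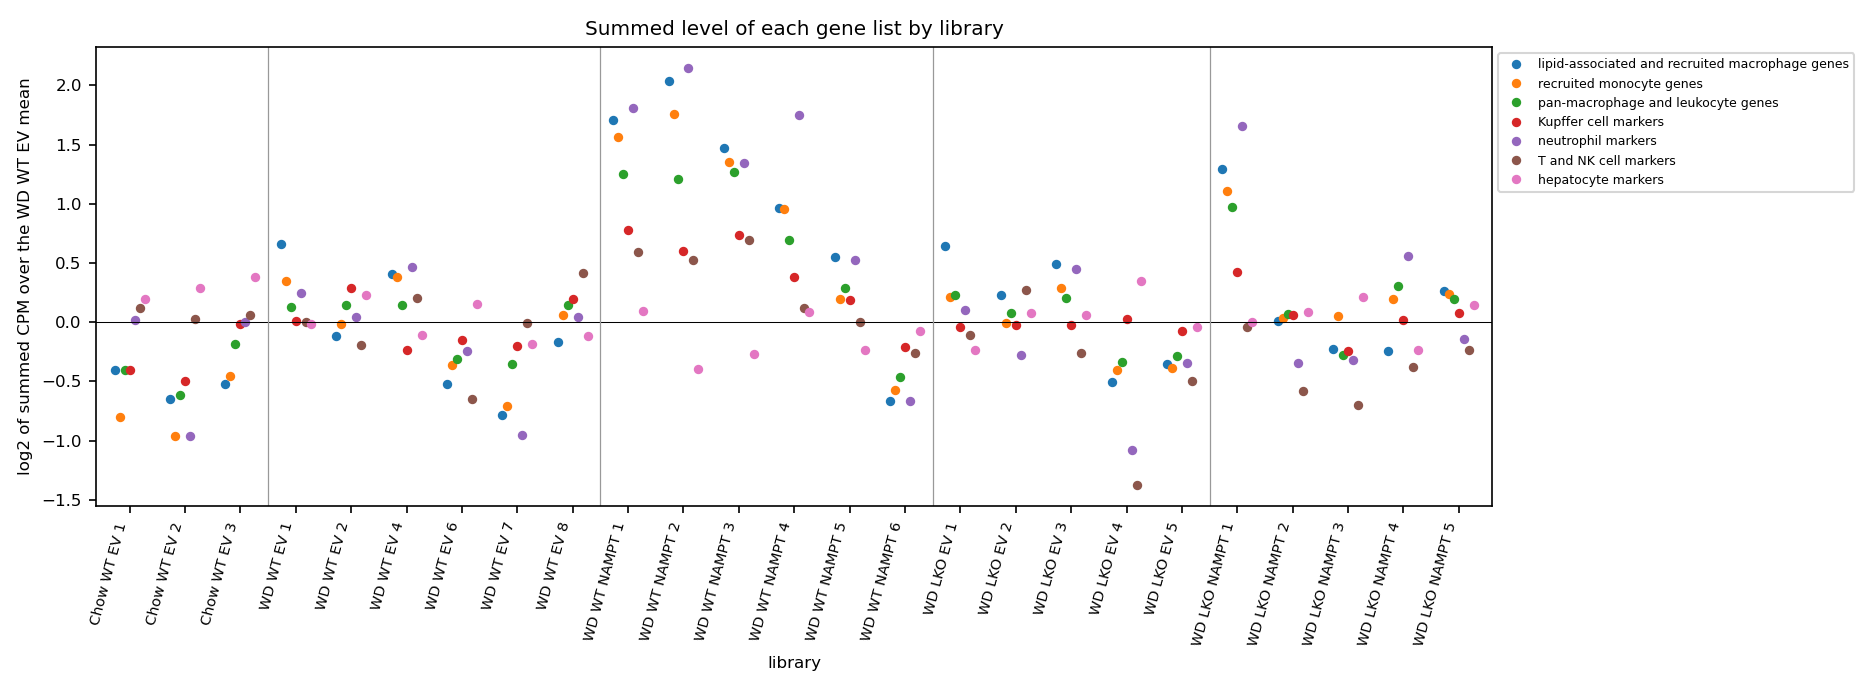
Log2 of the summed CPM of the 10 genes and of 6 marker lists in each library, relative to the mean of WT EV on Western diet, with grey lines between the groups. The 10 genes, the recruited monocyte genes and the neutrophil markers lie highest in replicates 1 to 4 of WT NAMPT and in replicate 1 of LKO NAMPT. The hepatocyte markers are lowest of all libraries in replicates 2 and 3 of WT NAMPT and highest of that group in replicates 1 and 4.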

How the data were processed

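RNA of 25 livers, 1 library per mouse, was sequenced after poly-A selection, and groups were taken from the sample titles. The authors aligned single-end reads to GRCm38 with STAR and counted unique, unambiguous reads per gene with featureCounts. The submitters' processing notes name STAR 2.5.1a and featureCounts 1.4.6-p5, whereas the methods of the study name other versions. Each deposited file gives raw counts for every gene beside CPM and RPKM, which the authors derived from those counts. Recomputing both from the counts gave a largest relative deviation of 5.9e-14, so the counts alone were used. Whether strand was used in counting is not given in the sources used here. Symbols were joined to 40254 of 41388 identifiers, and gene positions follow GRCm38.

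Genes with more than 1 CPM in at least 2 libraries were kept, 4 ribosomal RNA genes were left out, and 14065 remained. TMM factors (edgeR 4.0.16) and voomWithQualityWeights (limma 3.58.1, R 4.3.3) were used as in the methods of the study, with all 25 libraries in the fit, 1 mean per group and no covariate. Moderated limma p-values, two-sided, were corrected over the 14065 genes after Benjamini and Hochberg, and an adjusted p of 0.05 or less was a call. Errors are SD between libraries or SE of the fit. Total counts of 20166175 to 32937326 limit precision for scarce genes, and a group with 3 counts or fewer was read as at the floor. Correlations used log2(CPM + 0.5) and 100000 permutations within groups, two-sided.

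Alternatives were the edgeR quasi-likelihood test, DESeq2 1.42.0, no quality weights, library size alone, no filter, a filter on mean CPM, the replicate number as a block, only the groups compared, 1 library left out at a time, and a pseudocount of 1. The steps were tested on simulated data. The 10 genes, the gene lists and the tests were chosen with earlier results of these data known. Named genes are all members and their 12 partners, at most 3 called genes per list, direction and comparison, and the 2 genes nearest to each member. Replicate numbers were reused for different mice: in comparisons with 3 or more shared numbers, deviations of same-numbered libraries correlated from -0.377 to 0.419, so numbers were not treated as pairs. Nothing in the labels says how litters or cages were spread over groups.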

Additional observations from a re-analysis of the deposited data

Results flagged for a closer look

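In 8 of the 40 sets of libraries examined (10 genes in the 4 groups of 5 or 6 livers), the highest library lay farther from the next than Dixon's 95% limit allows. Chance gives about 1 in 20, and the genes are correlated with each other, so the 8 are not separate observations. Of these, 7 came from the same liver, LKO NAMPT replicate 1. It had 11.1 CPM of Trem2, 57.2 CPM of Gpnmb, 26.3 CPM of Cd9 and 11.9 CPM of Itgax. It also had 36.9 CPM of Lgals3, 49.8 CPM of Cd68 and 6.84 CPM of Itgam. The 8th was Spp1 at 65.7 CPM in WT EV replicate 1. The limit was applied to CPM without a logarithm, a scale on which low values can hardly be flagged. The low values of WT NAMPT replicate 6 were not among the 8, which therefore says nothing about that liver.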

How the results depend on the processing

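The counts of members called depended on the test and on single libraries. The share of all genes called in the same fit stands in parentheses. For Western diet against chow the count was 3 (22%), and it was 0 by the edgeR quasi-likelihood test (9.4%), 0 without quality weights (8.54%), 0 without a filter (6.77%), 1 with library size alone (23%) and 8 with the replicate number as a block (27.3%). For the NAMPT virus in WT it was 6 (13.4%) and changed to 0 without quality weights (1.37%). It was 4, without Trem2 and Itgax, when no filter was used (1.8%) and in a fit on only the groups compared (5.85%). With library size alone (16.2%) and with the replicate block (6.29%) it was 7. Between LKO NAMPT and WT NAMPT the count was 2 (7.96%), and it was 0 by the edgeR quasi-likelihood test (0.32%), by DESeq2 (2.09%), without quality weights (0.27%), without a filter (0.412%) and in a fit on only the groups compared (0.095%), 1 with library size alone (5.97%) and 6 with the replicate block (2.93%). Leaving out 1 library gave 0 to 3 (5.95% to 22.6%), 0 to 9 (0.94% to 20.2%) and 0 to 7 (0 to 16.3%) in these comparisons and 0 to 2 (0.00711% to 4.82%) for the interaction. In the fits that left out a chow library 2 chow livers remained, and the spread was pooled over the groups. The replicate numbers do not pair the mice, and no count with the block is a result of the design. The count stayed at 0 for the NAMPT virus in the livers labelled LKO and for LKO EV against WT EV in every fit. Single log2 differences changed sign only where they were not called. Spp1 in WT (NAMPT against EV) was -0.073 by the quasi-likelihood test, -0.075 by DESeq2 and -0.49 with the replicate block, and -0.16 to 0.29 with 1 library left out. For the NAMPT virus in the livers labelled LKO, Trem2 was 0.69 by both other tests, 0.31 without quality weights, 0.0074 with library size alone, 0.13 without a filter, 0.039 with the block and -0.32 to 0.18 with 1 library left out. Itgam there was 0.13 (quasi-likelihood), 0.12 (DESeq2), 0.084 (no weights), 0.027 (no filter) and -0.38 to 0.086 (1 library left out). Lyz2 there was 0.15, 0.14, 0.068 and 0.047 under the same 4 settings and -0.17 to 0.072, and Itgax -0.20 to 0.41, with 1 library left out. For LKO EV against WT EV, Gpnmb was -0.12 (quasi-likelihood), -0.13 (DESeq2), -0.026 (no filter), -0.59 (block) and -0.46 to 0.92 (1 library left out). With the block, Trem2 was -0.34, Itgax -0.071, Cd68 -0.094 and Lyz2 -0.13 there, and with 1 library left out Cd9 was -0.16 to 0.12 and Lgals3 -0.30 to 0.059. With 1 library left out, Spp1 in LKO NAMPT against WT NAMPT was -0.011 to 0.40, and with Western diet Cd9 was -0.0013 to 0.31, Itgam -0.36 to 0.34 and Lyz2 -0.031 to 0.23. The interaction of Cd9 was 0.013 with the block. DESeq2 gave no adjusted p for the interaction of any member, and these 10 values are left out of the counts. In all, 394 of 470 values kept their direction and side of the threshold under the other settings, and 643 of 750 with 1 library left out, and the 55 correlations did with a pseudocount of 1. The cause of these changes was not tested. Depth limits Gpnmb, Trem2 and Ly6c2 most, with as few as 1, 8 and 7 counts in a library.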
